A study of Mus musculus with 12 samples.

Results

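Apolipoproteins are the protein part of lipoprotein particles, which carry cholesterol, triglycerides and phospholipids in blood, lymph and tissue fluid. They give the particles their structure, they are recognised by receptors that take the particles into cells, and they switch the enzymes of lipid metabolism on or off. Most circulating apolipoproteins are made in the liver and the intestine, whereas *Apoe*, *Apod* and *Clu* are also made locally in nervous tissue, including the brain, which liver-made particles do not reach. Here 10 genes of this family and its partners were followed along the cochlea: *Apoa1*, *Apoa2*, *Apoa4*, *Apob*, *Apoc1*, *Apod*, *Apoe*, *Apof*, *Clu* and *Lcat*. The members were all probes of the arrays that carry one of these gene names, 10 of 19505 gene names in all. *Apoa4* and *Apof* were chosen by their measured signal in the middle turn of these same arrays, so their values are described without a test, and the other 8 genes were tested.

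The arrays compared 3 turns of the cochlea, apical, middle and basal, in male C57BL/6 mice aged 6 weeks, with 4 arrays for each turn and 25 ng of total RNA per array. No group carried a treatment or an altered gene. Each sample held the organ of Corti, spiral ganglion neurons and the lateral wall of a turn, with its stria, ligament and prominence. Fewer cells of a type and less RNA per cell can therefore not be told apart. The study's description names 4 mice, nothing in the labels says whether samples with the same number came from the same animal, and p-values measure the spread between these samples only. Each turn was hybridised on a slide of its own, and slide and turn cannot be told apart in any value below.

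The probes were designed to single exons, and the signal of a probe is a fluorescence intensity scaled so that the 75th percentile of every array was equal, at 641.3 units. The signal of a gene is the mean of the log2 values of its probes, given below in scaled units. Since probes differ in brightness for reasons other than RNA amount, levels are compared between turns and not between genes. Sums over gene lists add linear signals, so the brightest genes weigh most in them. A gene was called when limma's moderated test gave an adjusted p under 0.05 over all genes of the arrays, and log2 differences are the first turn named minus the second. On each array 77.4% to 81.4% of the spots exceeded background, none was saturated, and the median SD of a gene within a turn was between 0.106 and 0.126 log2 units. Markers of hair cells, supporting cells, neurons, glia, stria vascularis and spiral ligament were above background in every turn, except the hair cell gene *Atoh1*, which was not above background in any.

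The result turns on a few probes, which are shown here before their values because probes of the same gene did not all behave alike. They are those of *Apoa4*, of *Apoc3* and *Apoa1* beside it on the chromosome, and of the 2 tested genes with the largest differences above background, *Lcat* and *Apoc1*. Each has 60 bases and is written 5′ to 3′ as the array files list them, the number in each name is the base of the transcript at which the probe starts, and capitals mark the first ATG of a probe at the start of the protein, from which no stop codon follows in frame within the probe.
Apoa4, base 409: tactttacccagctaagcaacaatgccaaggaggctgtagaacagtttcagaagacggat
Apoc3, base 47: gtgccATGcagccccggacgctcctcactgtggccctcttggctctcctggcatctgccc
Apoc3, base 162: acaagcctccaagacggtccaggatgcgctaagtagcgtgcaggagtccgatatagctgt
Apoa1, base 109: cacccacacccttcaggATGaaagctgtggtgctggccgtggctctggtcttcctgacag
Apoa1, base 222: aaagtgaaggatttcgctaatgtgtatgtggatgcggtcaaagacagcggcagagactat
Lcat, base 118: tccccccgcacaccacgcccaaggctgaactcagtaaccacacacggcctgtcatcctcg
Lcat, base 474: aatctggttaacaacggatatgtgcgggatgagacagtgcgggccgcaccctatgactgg
Apoc1, base 270: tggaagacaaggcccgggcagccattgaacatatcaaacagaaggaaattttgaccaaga
On the mouse genome build mm9, the *Apoa4* probe lies at chr9:46049601-46049660 on the plus strand. The *Apoc3* probes lie on the minus strand at chr9:46042742-46042801 and chr9:46042509-46042568, and the *Apoa1* probes lie on the plus strand at chr9:46037023-46037082 and chr9:46037252-46037311. The *Lcat* probes lie on the minus strand of chromosome 8, at chr8:108467125-108467184 and chr8:108465859-108465918, and the *Apoc1* probe is at chr7:20277241-20277300 on the minus strand. G and C made up between 45.0% and 68.3% of the bases of a printed probe, most in the *Apoc3* probe at base 47 and the *Lcat* probe at base 118, with 68.3% and 63.3%.

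*Apoa4* had its highest signal at the apex, an intermediate one in the middle turn and its lowest at the base, and no array of a turn overlapped with an array of another turn. *Apoa4* encodes a component of chylomicrons and high-density lipoprotein that is made mainly in the intestine. Its signal was 539, 559, 514 and 598 on the 4 apical arrays, 240, 233, 266 and 290 on the middle arrays and 55.5, 45.4, 52.1 and 54.0 on the basal arrays. The log2 difference between apex and base was 3.42, the apex was 2.15-fold the middle turn, and the middle turn was 4.96-fold the base. The gene was chosen for a high signal in the middle turn, yet the middle turn stood between the ends of the cochlea.

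The 3 probes of *Apoa4* gave very different sizes of this difference. The probe that starts at base 262 of the transcript, at chr9:46049189-46049248, was above background in every turn and differed by only 0.94 on the log2 scale between apex and base, from 281 to 319 at the apex to 145 to 168 at the base. The probe at base 1602, at chr9:46051478-46051537, ran from 3460 to 4380 at the apex, from 1310 to 1600 in the middle turn and from 118 to 160 at the base, a log2 difference of 4.79 between apex and base. The printed probe at base 409 lay between 124 and 153 at the apex and was not well above background on any basal array. With its basal signal raised to the dimmest signal that counted as well above background, the apex was 5.12-fold and the middle turn 1.93-fold the base. Some brighter probes did not count as well above background, so these folds are not strict lower bounds. All 3 probes thus gave the order apex, middle, base. The size depended on the processing, since the log2 difference between apex and base was 1.10 with the median and 3.84 with linear means of the probes, and 2.20 with normexp background correction.

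*Apof* ran the other way, with its highest signal at the base. Its human counterpart is known as an inhibitor of the protein that exchanges lipids between lipoproteins. The only probe of *Apof* is at chr10:127706973-127707032 on the plus strand. The signal was 93.5, 53.5, 71.0 and 119 at the apex, 524, 221, 125 and 124 on the middle arrays, and 692, 2040, 562 and 515 at the base. Apex and base did not overlap, but the brightest middle array lay above the dimmest basal array, and the spread within the middle turn and within the base was wide, with an SD of 0.98 and 0.92 log2 units. The base was 9.91-fold the apex and 3.88-fold the middle turn, and the middle turn was 2.55-fold the apex. Basal replicate 2 was the brightest array, and without it the log2 difference of *Apof* between apex and base was -2.86 in place of -3.31. As for *Apoa4*, the middle turn stood between the ends, and neither gene was highest there.

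**Figure D1:**
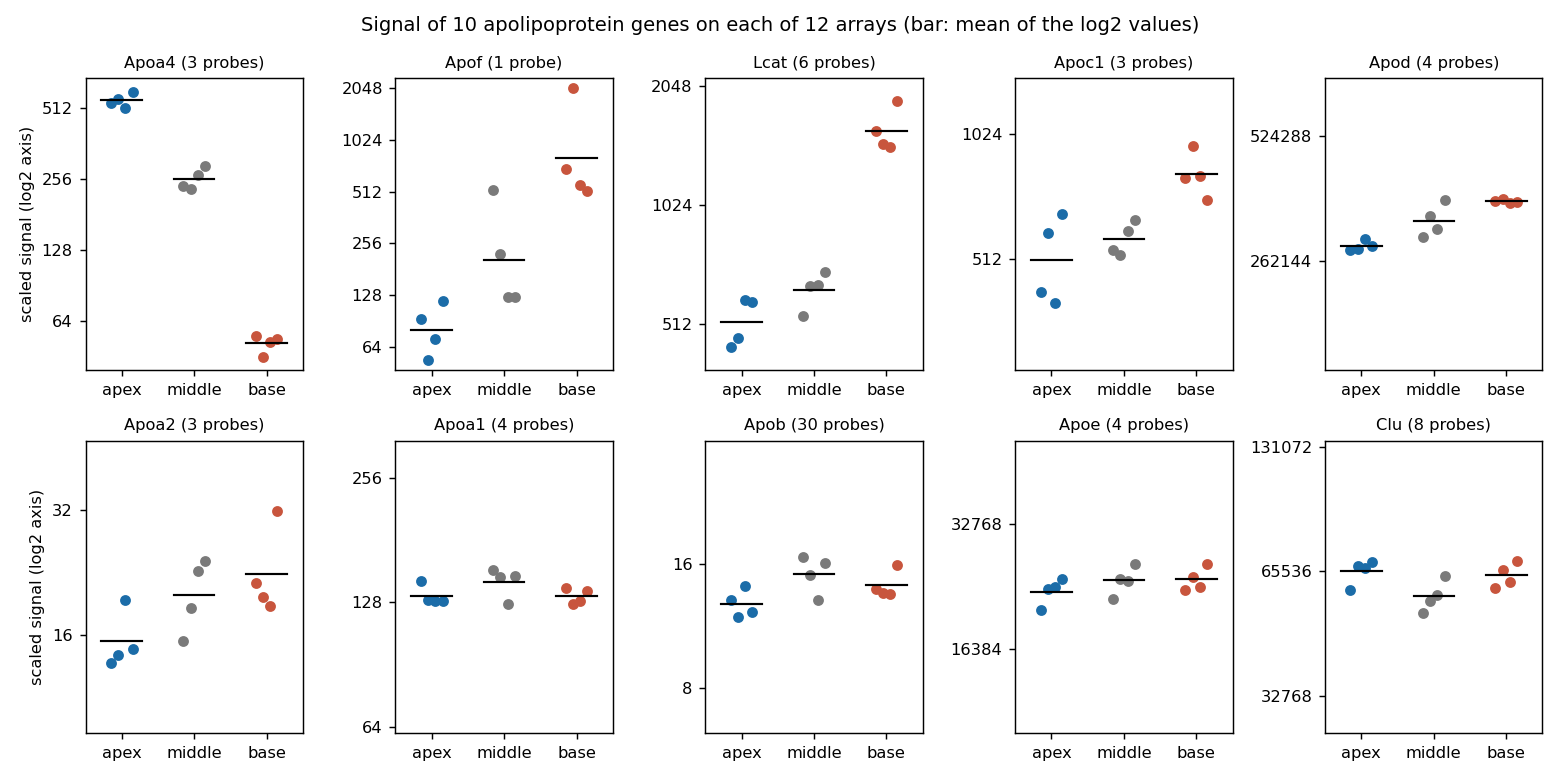
Scaled signal of the 10 genes on each array (vertical axes on a log2 scale, which differ between panels) for 4 arrays per turn, with bars at the mean of the log2 values. *Apoa4* steps down from 514 to 598 at the apex to 45.4 to 55.5 at the base, *Apof* and *Lcat* step up towards the base, and the other genes differ by less.

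Of the 8 genes that were tested, 4 were called between apex and base, and all 4 (*Lcat*, *Apoc1*, *Apod* and *Apoa2*) were higher at the base. Over all genes of the arrays, 39.2% were called in this comparison, 17.6% higher at the apex and 21.6% higher at the base, so a call by itself does not set these genes apart. Ranges that did not overlap between apex and base were likewise common, in 38.3% of all genes. Scaled to spike-in RNA in place of the 75th percentile, which moved the median of all genes to -0.454, all 8 genes were called and lower at the apex. None of the 8 was called between apex and middle turn, where 12% of all genes were called (4.42% higher at the apex, 7.59% higher in the middle turn) and 20.8% did not overlap, and *Lcat* and *Apoc1* were called between middle turn and base, where 20.9% of all genes were called (11.7% higher in the middle turn, 9.21% higher at the base) and 24.1% did not overlap. The median log2 difference of the 8 genes between apex and base was -0.25, beside a median of -0.036 over all genes tested. The absence of calls between apex and middle turn was not firm. *Apod*, *Apob* and *Clu* came close, with adjusted p values of 0.053, 0.096 and 0.11 and limma 95% intervals of their log2 difference that ran from -0.34 to -0.07, from -0.43 to -0.05 and from 0.03 to 0.36.

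*Lcat* was the gene that differed most among the 8 tested. It encodes the plasma enzyme that attaches fatty acids to cholesterol on high-density lipoprotein, for which the products of *Apoa1* and, in the brain, *Apoe* act as activators. Its signal was 446, 472, 586 and 581 at the apex, 534, 637, 642 and 693 on the middle arrays and 1570, 1460, 1430 and 1870 at the base. Every basal array lay above every array of the other turns, while apex and middle turn overlapped. The base was 3.04-fold the apex, with a log2 difference of apex minus base of -1.60 (SE 0.12, adjusted p = 4.1e-06, limma), and 2.52-fold the middle turn (log2 difference -1.33, adjusted p = 6e-05). Of all genes, 1.15% were called and at least 2-fold higher at the base than at the apex, and 0.451% at the base than in the middle turn. Between apex and middle turn the log2 difference of *Lcat* was -0.27 (adjusted p = 0.15), with a 95% interval from -0.53 to 0.00.

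All 6 probes of *Lcat* were called between apex and base, where 34.4% of all probes were, and all 6 between middle turn and base, where 13.8% of all probes were. They lie between 108463857 and 108467184 on chromosome 8 and did not move by the same amount. The printed probe at base 118, the one nearest the start of the transcript, differed by -0.42 on the log2 scale (adjusted p = 0.0018), from 420 to 494 at the apex to 551 to 628 at the base. The printed probe at base 474 differed by -2.14 (adjusted p = 6.9e-05), from 246 to 480 at the apex to 1360 to 2070 at the base. The probe at base 702 differed by -0.98, and the other 3, at bases 240, 391 and 896, by -2.09 to -1.99. Each of the 6 probes was above background on all 12 arrays.

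*Apoc1* was higher at the base as well. Its product is a small exchangeable apolipoprotein of very-low-density and high-density lipoprotein that is also made by macrophages. The signal was 426, 592, 401 and 657 at the apex, 538, 522, 597 and 635 on the middle arrays and 802, 961, 814 and 712 at the base. Every basal array lay above the arrays of the other turns, and the apical arrays were the most scattered, with an SD of 0.35 log2 units. The base was 1.61-fold the apex (log2 difference -0.69, SE 0.16, adjusted p = 0.0048, limma) and 1.43-fold the middle turn (log2 difference -0.52, adjusted p = 0.038). The second of these calls was not stable, since the adjusted p rose to 0.095 and 0.089 without middle replicate 1 or 2 and to 0.067, 0.11 and 0.061 without basal replicate 1, 2 or 3, to 0.051 after quantile normalization, and to 0.22 with the median of probes, where the log2 difference was -0.29. Its 3 probes were called between apex and base, with log2 differences from -0.75 to -0.62, and the printed probe at base 270 rose from 156 to 269 at the apex to 276 to 385 at the base. Of 10 macrophage markers measured, 8 were also higher at the base than at the apex, beside 21.6% of all genes. Each marker had a probe above background. The summed signal was 4170 to 5040 at the apex, 4630 to 5060 in the middle turn and 5770 to 7140 at the base. The apical arrays with the most *Apoc1*, replicates 2 and 4, were also the highest apical arrays for the neutrophil granule genes *Ngp* and *Camp*. The 4 apical arrays gave 157, 573, 35.2 and 1350 for *Ngp* and 221, 572, 37.0 and 1470 for *Camp*. Both were picked from 9 red blood cell and marrow markers after their values were seen, and the others are not given by array. Some macrophage markers had the same highest apical arrays, such as *Csf1r* with 285, 312, 285 and 339. Others did not, such as *Cx3cr1* with 355, 339, 236 and 320. None of 9 red blood cell and marrow markers was called between apex and base, where 39.2% of all genes were. Their sums were 155000 to 318000, 260000 to 367000 and 196000 to 384000 from apex to base. Of 10 bone and cartilage markers, 3 were higher at the base, beside 21.6% of all genes, and 7 were not called between apex and base. Their sums were 3440 to 16900, 6130 to 7090 and 11100 to 12500. The part of these 3 marker lists in the result of *Apoc1* was not tested.

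*Apod* encodes a lipocalin that binds small lipids and is made by fibroblasts and glia. Its signal was 278000, 280000, 296000 and 284000 at the apex, 299000, 335000, 312000 and 367000 on the middle arrays and 365000, 370000, 362000 and 363000 at the base. Apex and base did not overlap, and the basal arrays were nearly alike. The base was 1.28-fold the apex, with a log2 difference of -0.36 (SE 0.061, adjusted p = 8e-04, limma). After quantile normalization the difference was -0.02 (adjusted p = 0.69), and this was the only 1 of 26 alternatives in which the call was lost. Between apex and middle turn the difference was -0.20, and it passed the threshold in 9 of 26 alternatives. Among them were the fits without middle replicate 1 or 3, with adjusted p values of 0.031 and 0.039. Arrays scaled to their median (0.024) and limma's trend and robust options (0.037) were others. Between middle turn and base it was -0.16 (adjusted p = 0.089), and it passed in 4 of 26 alternatives, among them without middle replicate 4 (0.019). The 4 probes lie between 31297206 and 31311159 on the minus strand of chromosome 16, and 3 of them, at bases 206, 320 and 417, differed between apex and base by -0.58, -0.39 and -0.41. The last probe, at base 874, differed by -0.06 (adjusted p = 0.6).

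Of 10 genes that mark spiral ligament fibrocytes and mesenchyme, 7 were higher at the base than at the apex and 1 was lower. Over all genes, 21.6% were higher at the base and 17.6% lower. The markers were all above background. Their summed signal was 300000 to 329000 at the apex, 403000 to 457000 in the middle turn and 584000 to 658000 at the base. Most of each sum was *Otos* and *Coch*, with *Otos* at 141000 to 161000 at the apex and 344000 to 397000 at the base. Of 10 stria vascularis markers, 9 were higher at the base than at the apex, beside 21.6% of all genes. Their sums were 42000 to 49500, 52300 to 75200 and 63700 to 86000, again with all markers above background. Their part in the results of *Lcat* and *Apod* was not tested.

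*Apoa2*, *Apob* and the distal probes of *Apoa1* were at or near background in the cochlea. *Apoa2*, whose product is a main protein of high-density lipoprotein, had a signal from 13.7 to 19.4 at the apex, 15.5 to 24.1 in the middle turn and 18.8 to 31.9 at the base, and apex and base overlapped. None of its 3 probes was well above background on all arrays of the apex or the middle turn, and 1 was at the base. Its log2 difference of -0.54 between apex and base (adjusted p = 0.042, limma) passed the threshold by little. It no longer passed without apical replicate 1, 2 or 4 (adjusted p = 0.1, 0.095 and 0.082), without middle replicate 2 (0.053), without basal replicate 1 or 4 (0.064 and 0.11), or when probes at background were left out (0.11). The call was also lost with normexp background correction, where the difference shrank to -0.19 (adjusted p = 0.06, limma). The median of probes (0.069, limma) and the F test over the 3 turns (0.14) lost it too.

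*Apob* encodes the large structural protein of chylomicrons and low-density lipoprotein. It has 30 probes between 7984607 and 8023642 on chromosome 12, of which 4 at the apex, 2 in the middle turn and 6 at the base were well above background on all arrays. The gene signal was between 11.9 and 16.6 on all 12 arrays, the turns overlapped, and no comparison was called in the main fit of all 12 arrays. Between apex and base it was called and higher at the base after quantile normalization (-0.26, adjusted p = 0.0051) and with arrays scaled to their median (-0.27, adjusted p = 0.028). Between apex and middle turn the difference was -0.24, and without middle replicate 3 it was -0.31 and passed (adjusted p = 0.025), as it did with array medians at -0.29 (0.042). Of its probes, 1 was called between apex and base and none in the other comparisons. The called probe, at base 4473, was not well above background on any array. The probe at base 124, at chr12:7984607-7984666, was above background in every turn, with a signal from 219 to 297 at the apex, 254 to 281 in the middle turn and 269 to 278 at the base, and it was not called.

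*Apoa1* encodes the main protein of high-density lipoprotein. The 2 probes nearest the start of its transcript were above background on all arrays, and the 2 further in were not well above background on any. Of 15 spots of its 4 probes, 3 had an outlier flag and were left out. The probe at base 16, at chr9:46036729-46036788, ran from 6060 to 6880 at the apex and from 6160 to 7270 at the base, and the printed probe at base 109 from 988 to 1270 and from 957 to 1140. The printed probe at base 222 lay between 5.50 and 8.05 on all arrays, and the one at base 356 between 6.17 and 9.27. The gene signal of *Apoa1* was 127 to 153 over the 12 arrays, and the log2 difference between apex and base was 0.00, with a 95% interval from -0.15 to 0.14, and its sign changed with the scaling.

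*Apoe* and *Clu*, the lipid carriers known for their high expression in glia, were not called in any comparison of the main fit. Their calls and signs moved with the scaling. *Clu* was also called between apex and middle turn and between middle turn and base when the fit held a term for the sample number. *Apoe* encodes a ligand through which cells bind and take up lipoprotein particles. Its signal was 20300, 22800, 23100 and 24100 at the apex, 21600, 24200, 23900 and 26200 on the middle arrays and 22700, 24400, 23100 and 26300 at the base, and the turns overlapped. The log2 difference between apex and base was -0.10 (adjusted p = 0.38, limma), with a 95% interval from -0.26 to 0.07, and it changed sign to 0.10 after quantile normalization (adjusted p = 0.22). With arrays scaled to their median it was -0.21 and was called (adjusted p = 0.049), as it was with spike-in RNA at -0.51 (0.0016). All 4 probes of *Apoe* were above background on every array, and their differences between apex and base ran from -0.25 to -0.02 without a call. *Clu* encodes clusterin, also named apolipoprotein J, a secreted chaperone. Its signal was 59000, 67300, 66800 and 69100 at the apex, 52100, 55700, 57400 and 64000 on the middle arrays and 59700, 65900, 61900 and 69200 at the base. The middle arrays were low but overlapped with both ends. The difference was 0.03 between apex and base (95% interval -0.14 to 0.20), with the sign changed to -0.09 when arrays were scaled to their median, 0.20 between apex and middle turn (adjusted p = 0.11) and -0.16 between middle turn and base (adjusted p = 0.15). After quantile normalization *Clu* was called, with 0.28 between apex and base (adjusted p = 0.0078) and 0.33 between apex and middle turn (0.015). Of the 8 *Clu* probes, 1 was called, the one at base 267, with 0.30 between apex and middle turn (adjusted p = 0.044), where 5.91% of all probes were called. Schwann and satellite glia markers were higher at the apex than at the base for 8 of 9 genes, beside 17.6% of all genes. Their sums were 15200 to 16900 at the apex, 15900 to 19300 in the middle turn and 7820 to 14300 at the base. The part of these markers in the values of *Apoe* and *Clu* was not tested.

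**Figure D2:**
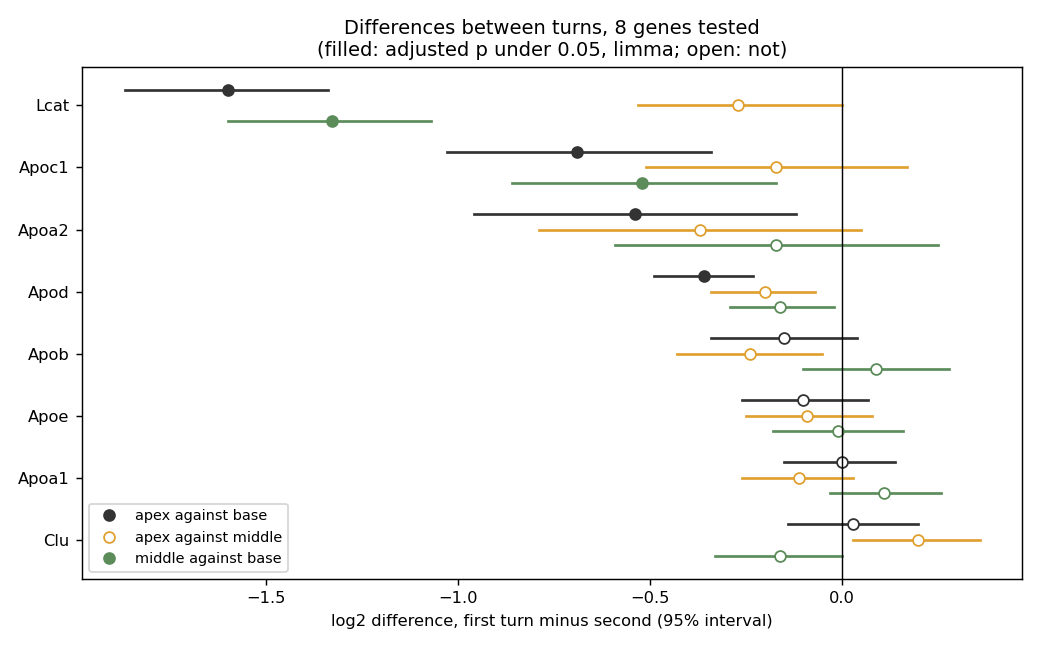
Log2 difference between turns for the 8 tested genes (horizontal axis, first turn minus second) with limma's 95% interval, filled where the adjusted p was under 0.05. *Lcat* stands at -1.60 and -1.33 against the base, and *Apoe*, *Apoa1* and *Clu* lie around 0 with intervals that reach no further than 0.36 from it.

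*Apoa4* belongs to a cluster on chromosome 9 in which *Apoa1*, *Apoc3*, *Apoa4* and *Apoa5* lie side by side, and its neighbours did not all share its pattern. *Apoc3* encodes an inhibitor of lipoprotein lipase, the enzyme that releases fatty acids from triglyceride-rich particles, and it was the only gene among 72 other lipoprotein genes measured that was called and at least 2-fold different. The nearest probes of *Apoc3* and *Apoa4* are 6.39 kb apart, and those of *Apoa1* and *Apoc3* 3.15 kb. The signal of *Apoc3* was 420, 498, 408 and 460 at the apex, 359, 324, 366 and 380 on the middle arrays and 89.9, 82.0, 84.8 and 91.6 at the base. No turn overlapped with another. The log2 difference was 2.36 between apex and base (SE 0.074, adjusted p = 1.6e-08, limma), 2.04 between middle turn and base (adjusted p = 2.1e-07) and 0.32 between apex and middle turn (adjusted p = 0.021). The last of these calls was lost without apical replicate 2 (adjusted p = 0.064) and without middle replicate 2 (0.057). It was also lost with the median of probes (0.12), with linear means of probes, which gave a log2 difference of 0.10 (0.22), and with spike-in RNA (0.26). Of all genes, 3.32% were called and at least 2-fold higher at the apex than at the base, and 2.21% in the middle turn than at the base.

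As in *Apoa4*, the probe of *Apoc3* nearest the start of the transcript differed least between turns. The printed probe at base 47, which holds the start of the protein, was 1280 to 1430 at the apex, 1300 to 1530 in the middle turn and 1340 to 1420 at the base, a log2 difference of -0.04 between apex and base (adjusted p = 0.68). The printed probe at base 162 was 123 to 171 at the apex, 76.3 to 108 in the middle turn, and was not well above background on any basal array. It was called higher at the apex and in the middle turn than at the base (adjusted p = 3.3e-08 and 3.3e-07, limma). With its basal signal raised as for *Apoa4*, the apex was 5.36-fold and the middle turn 3.48-fold the base. The probe at base 464 was 352 to 565 at the apex, 336 to 392 in the middle turn and 67.1 to 89.2 at the base. When linear probe signals were averaged, the log2 difference of *Apoc3* between apex and base was 0.41, and it was 1.11 with normexp background correction, both still called. In *Apoa1* the printed probe at the start of the protein, at base 109, differed by 0.04 between apex and base, and the probe at base 222 was at background in all turns.

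**Figure D3:**
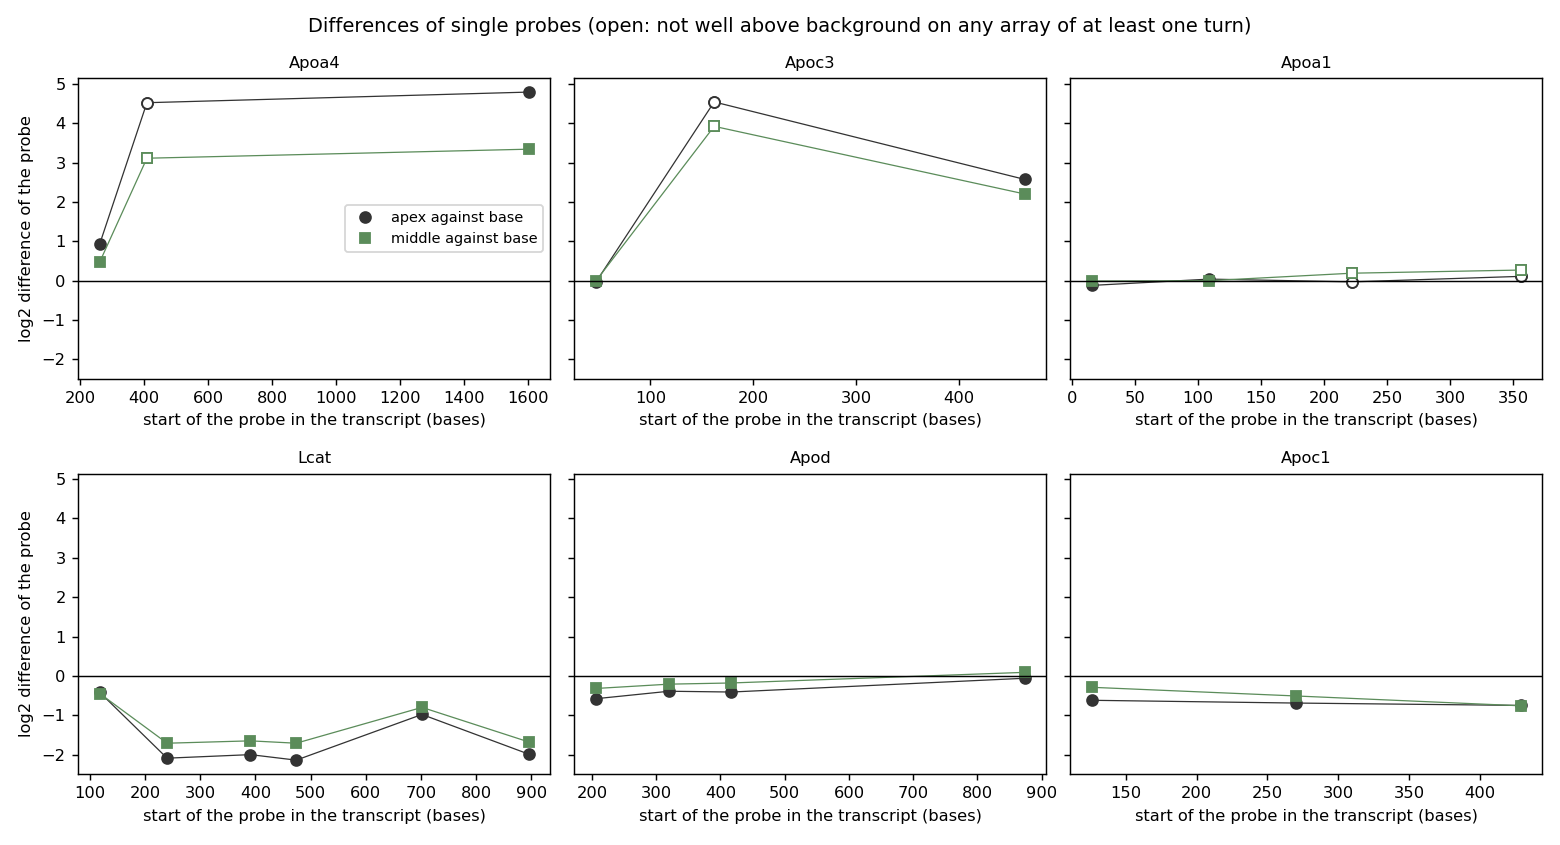
Log2 difference of each probe (apex minus base and middle minus base) by the base at which it starts in the transcript, for *Apoa4*, *Apoc3*, *Apoa1*, *Lcat*, *Apod* and *Apoc1*. In *Apoa4* and *Apoc3* the first probe gives 0.94 and -0.04 between apex and base and the others between 2.57 and 4.79, and open symbols mark probes that were not well above background on any array of a turn.

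The other neighbours within 100 kb on chromosome 9 differed by less. *Apoa5*, which encodes an activator of triglyceride breakdown, differed by 0.45 between apex and base (adjusted p = 0.059) with 1 of 2 probes above background, *Zfp259* by -0.24 (adjusted p = 0.0026), *Sik3* by -0.06 and *Bud13* by -0.10. Around *Apoe* and *Apoc1* on chromosome 7, 11 genes have a probe within 100 kb. Of these, 6 were called between apex and base, beside 39.2% of all genes, all of them higher at the base and none by 2-fold: *Bcam* with a log2 difference of -0.98, *Apoc1*, *Relb* with -0.51, *Clptm1* with -0.40, *Cblc* with -0.38 and *Tomm40* with -0.23. The apolipoprotein genes *Apoc2* and *Apoc4*, which lie between *Clptm1* and *Apoc1*, differed by -0.08 and 0.13 and were not called. The surroundings of *Lcat* on chromosome 8 were added after its values had been seen. There 8 of 15 genes, *Lcat* included, were called between apex and base, beside 39.2% of all genes, and the gene next to it, *Slc12a4*, a potassium-chloride cotransporter whose nearest probe is 0.4 kb away, differed by -0.73 (adjusted p = 3.2e-05).

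**Figure D4:**
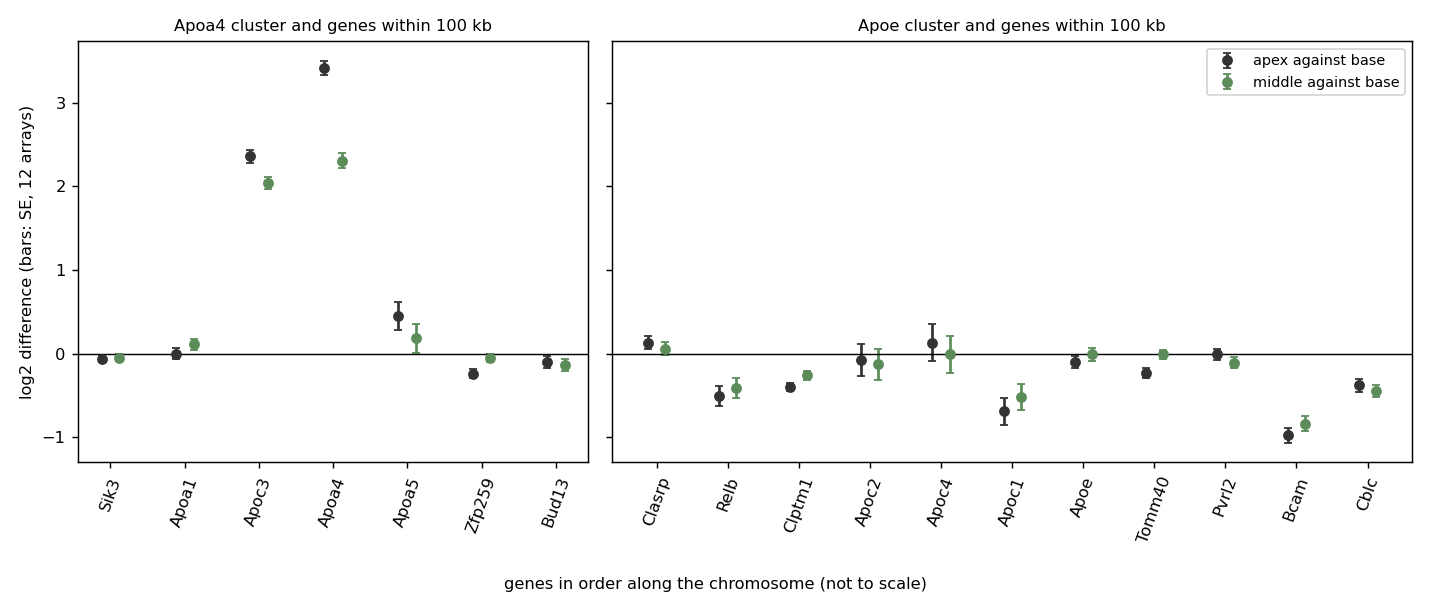
Log2 difference of the genes within 100 kb of the *Apoa4* cluster and of the *Apoe* cluster (apex minus base and middle minus base, bars are the SE of the fit over 12 arrays), in their order along the chromosome. *Apoc3* and *Apoa4* stand at 2.36 and 3.42 between genes that lie between -0.24 and 0.45, and in the *Apoe* cluster no gene lies further from 0 than *Bcam* at -0.98.

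The genes whose values over the 12 arrays were most like those of *Apoa4*, among 1059 genes whose turn means differed 2-fold or more, were *Emilin2* (Pearson r = 0.9953), *Rassf6* (0.995), *Col23a1* (0.9913), *Tox* (0.9912) and *Sdpr* (0.9892). The correlations describe 12 arrays that fall into 3 turns on 3 slides, and they carry no test. *Emilin2*, an extracellular matrix glycoprotein, had a signal from 3560 to 4380 at the apex, 1490 to 2260 in the middle turn and 292 to 406 at the base, and the apex was 12.6-fold the base. For *Apof* the likeness was lower, with *3830403N18Rik* (0.9361), *Ifi27l1* (0.933), *Hhip* (0.9308), *Ccl7* (0.9192) and *Foxc2* (0.9077) leading. *Hhip* encodes a protein that binds hedgehog ligands. *Hhip* ran from 44.0 to 58.6 at the apex, 72.0 to 111 in the middle turn and 175 to 275 at the base. All the genes listed for *Apof* were, like *Apof* itself, brightest on basal replicate 2, with 36600 for *Ifi27l1* and 275 for *Hhip*.

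*Apoa4* and *Apoc3* moved in the same direction as markers of several cell types that were brighter at the apex. Of 8 hair cell markers, 7 were higher at the apex than at the base, beside 17.6% of all genes. Their sums were 22300 to 26100 at the apex, 18400 to 24700 in the middle turn and 4990 to 13200 at the base. Spiral ganglion neuron markers were higher at the apex for 7 of 9 genes and lower for 1, with sums of 27200 to 34700, 24100 to 41500 and 6160 to 22000. Their part in the results of *Apoa4* and *Apoc3* was not tested. Of 21 liver and plasma protein genes, 1 was higher at the apex, 5 were higher at the base and 15 were not called. Over all genes, 17.6% were higher at the apex and 21.6% at the base. The median log2 difference of these plasma genes was -0.12. Their sums were 22300 to 29600, 33000 to 45200 and 55500 to 73100 in the 3 turns from apex to base. Most of each sum was *Trf*, with 20200 to 26900 at the apex and 47300 to 60000 at the base. *Alb*, which encodes serum albumin, had 2 of 13 probes above background at the apex and a signal from 13.9 to 17.8 over all arrays, and the fibrinogen genes *Fga*, *Fgb* and *Fgg* lay between 9.94 and 28.5. *Rbp4*, the retinol carrier, was 22.5 to 35.6 at the apex, 42.7 to 99.0 on the middle arrays and 4530 to 8900 at the base, a log2 difference of -7.76 between apex and base (adjusted p = 6e-08), with 3 of 6 probes above background at the apex and all 6 at the base. The iron carrier *Trf* and the thyroxine carrier *Ttr* were well above background and higher at the base, by log2 differences of -1.19 and -1.37. The part of these genes in the results of the apolipoproteins was not tested.

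The rest of the lipoprotein pathway was read from 74 genes listed beside the members, of which 72 were measured. Between apex and base, 9 were higher at the apex, 21 were higher at the base and 42 were not called, and the 41.7% called stood beside 39.2% of all genes. Between middle turn and base, the middle turn was higher in 10 and the base in 15, 34.7% beside 20.9% of all genes, and between apex and middle turn the apex was higher in 2 and the middle turn in 5, 9.72% beside 12%. The median log2 difference of the list between apex and base was -0.08.

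Among 18 receptors and their adaptors, 2 were higher at the apex and 5 at the base, beside 17.6% and 21.6% of all genes. *Sorl1*, a sorting receptor that binds *Apoe* protein, differed most, from 1400 to 1630 at the apex, 1580 to 2040 in the middle turn and 2310 to 3010 at the base (log2 difference -0.86, SE 0.098, adjusted p = 7.2e-05, limma). The receptor *Vldlr*, which takes up very-low-density lipoprotein, was also higher at the base, with -0.36, and so was the microglial and macrophage receptor *Trem2* with -0.57. *Lrp8*, the receptor for reelin and *Apoe* protein in neurons, was higher at the apex by 0.27, and *Stab2* by 0.40. The large receptors *Lrp1* and *Lrp2* differed by -0.06 and 0.13 and were not called.

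Among 19 genes of lipid loading, efflux and particle remodelling, 2 were higher at the apex and 8 at the base. The shares over all genes were 17.6% and 21.6%. *Pon3*, a lactonase carried on high-density lipoprotein, was 235 to 265 at the apex, 292 to 352 in the middle turn and 421 to 544 at the base (log2 difference -0.98, SE 0.091, adjusted p = 1.8e-05), and it was called in all 3 comparisons. Also called and higher at the base were lipoprotein lipase, *Lpl*, which differed by -0.92 and its maturation factor *Lmf1*, by -0.61. The cholesterol exporter *Abcg1* differed by -0.38 and was called, whereas the exporter *Abca1*, which loads lipid onto *Apoa1* protein, differed by 0.10 and was not called. The 2 higher at the apex were *Abcg4*, with 0.47, and *Mttp*, the protein that loads lipid onto *Apob* protein, with 0.63, although only 4 of 18 *Mttp* probes were above background at the apex.

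Of 19 sterol sensors and nuclear receptors, 4 were higher at the apex and 7 at the base, beside 17.6% and 21.6% of all genes. *Rxrg*, a retinoid X receptor, was 206 to 260 at the apex, 209 to 282 in the middle turn and 116 to 203 at the base (log2 difference 0.76, adjusted p = 0.0038, between apex and base). When linear probe signals were averaged the difference of *Rxrg* was 0.05 (adjusted p = 0.63). *Hmgcs1*, a gene of cholesterol synthesis, was higher at the apex by 0.46, while *Srebf1*, *Insig1*, *Insig2* and *Srebf2*, which sense sterol or switch on lipid synthesis, were higher at the base, with -0.56, -0.59, -0.37 and -0.22. Of 16 other apolipoprotein and serum amyloid A genes, 14 were not called between apex and base, beside 39.2% of all genes called. The acute-phase gene *Saa1*, with -0.42 (adjusted p = 0.026, limma), was the only one besides *Apoc3* that was called.

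**Figure D5:**
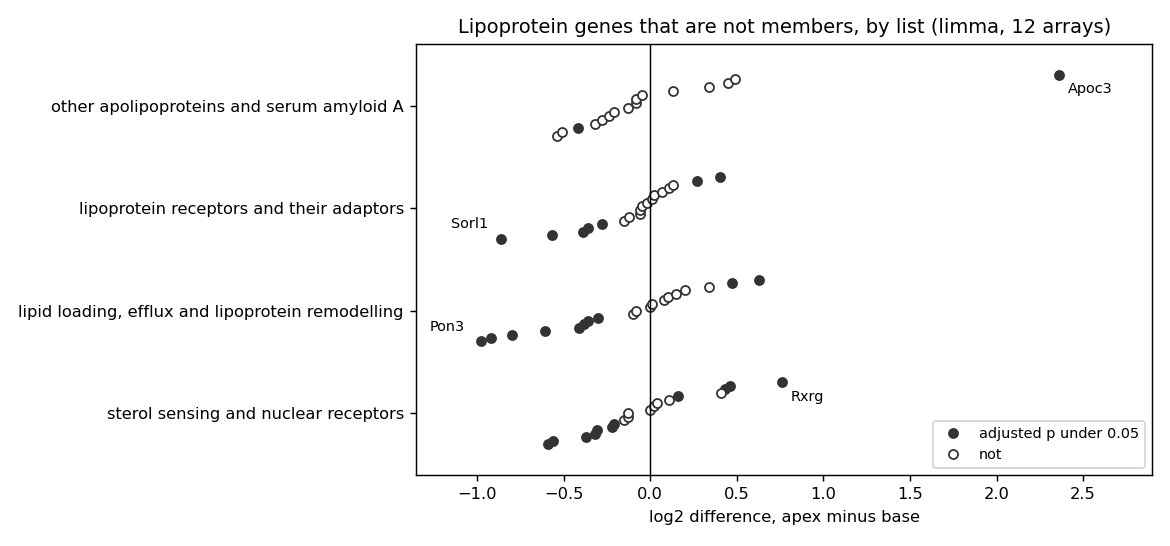
Log2 difference between apex and base (horizontal axis) of the 72 lipoprotein genes measured beside the members, in 4 lists, filled where limma's adjusted p was under 0.05. *Apoc3* stands alone at 2.36, and in the other lists *Sorl1* (-0.86), *Pon3* (-0.98) and *Rxrg* (0.76) lie furthest from 0.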

How the data were processed

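RNA from 12 cochlear turns, 4 for each turn, was labelled with 1 dye (Cy3) and hybridised to Agilent mouse exon arrays. The deposited intensity values were made by the authors with Agilent Feature Extraction 10.7.3.1, which subtracted the background of each spot without normalising between arrays, and probe positions are those of mm9. The deposited value table of the series equals this processed signal in 100% of 2170560 spots, within a relative difference of 1e-04. Of 180880 spots per array, 7914 controls and 622 flagged spots were left out, which left 165865 probes of 19505 genes. As in the study's methods, scaling used the 75th percentile of an array, which lay between 534.6 and 722.1 before. Log2 signals were averaged over the spots of a probe and then over the probes of a gene name. No low values were filtered. For dim spots the value rests on how the background was subtracted, and the number of arrays limits the precision.

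Turns were compared with limma 3.58.1 (lmFit and eBayes, R 4.3.3) in 1 fit of 12 arrays, and p-values were adjusted by Benjamini-Hochberg across 19505 genes or 165865 probes per comparison. The script was tested on simulated data. A fold for a probe not above background in a turn used, per array, the higher of its own signal and the lowest signal well above background. Such a fold is not a strict lower bound. The members and gene lists were chosen with earlier results of these data known. The genes named are the members, related genes called with a difference of 2-fold or more, the related gene with the largest difference in each list, the 5 genes most like *Apoa4* and *Apof*, and neighbours within 100 kb. Other related genes, markers and plasma protein genes are named to describe their lists and were chosen after their values were seen. Alternatives covered the background correction, normalization, an offset of 16, the probes used and how they were combined, flagged spots, the value table, a replicate block, limma's options, the methods' F test and each array left out. Scaling to spike-in probes was added after seeing the data. The gene names Apol6, Apol8, Adgre1, Sox10 and Barttin of the lists were not used here. Adgre1 and Barttin are other names for *Emr1* and *Bsnd*, which were counted. Some genes counted in the lists are not reported here by name.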

Additional observations from a re-analysis of the deposited data

Results flagged for a closer look

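In *Apoa1*, apical replicate 1 stood apart from the other apical arrays, with a signal of 144 beside 129, 129 and 130, so that its gap to the nearest array made up 0.946 of the range of the turn. In *Apob*, basal replicate 4 stood apart, with 15.9 beside 13.5, 13.6 and 13.9 and a share of 0.849, at a level near background. Both shares exceeded Dixon's 95% limit for 4 arrays. Of 42 groups of 4 arrays looked at, 2 did so, where chance at 1 in 20 gives 2.1, and neither gene was called in a comparison that these arrays enter.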

How the results depend on the processing

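Between apex and base the calls of *Lcat*, *Apoc1*, *Apoc3*, *Sorl1* and *Pon3* kept direction and threshold in all 26 alternatives, and the log2 difference of *Lcat* ran from -2.02 to -1.46 over the settings. Without single arrays 6504 to 7676 genes, 3 to 4 members and 29 to 32 related genes were called between apex and base, 965 to 3539, 0 to 2 and 3 to 9 between apex and middle turn, and 2659 to 4752, 1 to 3 and 15 to 28 between middle turn and base. The lowest and highest of the 965 to 3539 genes came without apical replicate 2 and middle replicate 3. Small differences changed sign: *Apoa1* (apex to base, -0.04 to 0.02 without single arrays), *Rxrg* (apex to middle turn, -0.07 to 0.08) and *Apoe* (middle turn to base, -0.05 to 0.04). *Clu* ran from 0.00 to 0.08 (apex to base).

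After quantile normalization 1 member was called between apex and middle turn and 1 between middle turn and base, without *Apoc1*, *Apoa1* was 0.06 and 0.01 from apex to base and to middle turn, *Apoe* 0.10, 0.02 and 0.08 in the 3 comparisons, and *Apob* -0.09 from middle turn to base. *Clu* and *Apob* then passed the threshold between apex and base, with 0.28 (adjusted p = 0.0078, limma) and -0.26 (0.0051). Scaling to the array median called 3549 genes, 2 members and 13 related genes between apex and middle turn and gave *Clu* -0.09 between apex and base. With 16 added, only probes above background, linear means, the replicate block, or trend and robust options, 1 member was called between apex and middle turn. It was *Clu* with the block and *Apod* with the others. *Rxrg* was then 0.00 with 16 added, 0.07 with probes above background, 0.09 with the median and 0.02 with linear means of probes, from apex to middle turn. With probes above background *Apob* was 0.01 and -0.11 from apex to middle turn and from middle turn to base, and *Apoa1* -0.01 in the latter. The median of probes left 1 member called between middle turn and base, again without *Apoc1*, *Apoa1* at 0.07 (apex to base) and *Apoe* at 0.03 (middle turn to base), and linear means gave *Apoa1* -0.01 and *Apoe* 0.05 from middle turn to base. The methods' F test over the 3 turns, which does not separate them, called 7341 genes, 3 members and 33 related genes, in place of the counts between apex and middle turn and of the genes between middle turn and base. The log2 difference of *Apoa4* between apex and base ran from 1.10 with the median to 3.84 with linear means of probes.

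Scaling to spike-in probes, chosen after seeing the data, called 14310 genes, 8 members and 50 related genes between apex and base, 6158, 3 and 19 between apex and middle turn, and 7759 and 4 members between middle turn and base. *Clu* was then -0.39 between apex and base, and *Apoa1* and *Apob* were -0.15 and -0.17 between middle turn and base. It moved the median of all genes to -0.454, -0.227 and -0.22, and array medians moved it to -0.153, -0.12 and -0.026, in the 3 comparisons. Of the calls, 45% were higher at the apex than at the base, 36.8% at the apex than in the middle turn and 55.9% in the middle turn than at the base. The split was 26.5%, 18.6% and 38.1% with array medians, 6.41%, 4.27% and 10.4% with spike-in probes, 36.8%, 41.6% and 45% with quantiles. The cause of these changes was not tested.

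Of the 12 pairs of samples with the same number, 6 correlated over 0.1 (mean r 0.0949), against 2 of 36 with other numbers (mean r -0.0313), and 8 of 12 arrays correlated best with their own number. This is a hint from the data, and since not every pair was over 0.1 and no label pairs them, the numbers were not taken as pairs. With the replicate block 8167, 3319 and 5063 genes and 4, 1 and 3 members were called in the 3 comparisons. The main fit, which ignores shared animals, called 7645, 2343 and 4071 genes and 4, 0 and 2 members. With the block, *Clu* was called between apex and middle turn (0.20, adjusted p = 0.023, limma) and between middle turn and base (-0.16, 0.027). Probes at background limit *Apoa2*, *Apob* and 2 probes of *Apoa1*.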
